A study of Mus musculus with 12 samples.

Results

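Fatty acid oxidation and lipolysis genes were examined in splenic CD8 T cells that lack 3 linker histone H1 genes. The 34 genes were chosen by symbol, as genes known to act in the release, activation, transport and mitochondrial or peroxisomal oxidation of fatty acids, and all 34 were found among the 24421 genes of the deposited comparison. Triple knockout animals (cTKO) carried deletions of Hist1h1c, Hist1h1d and Hist1h1e, and wild-type animals (WT) were their controls, both on a C57BL/6 background. The comparison holds 2 cTKO and 2 WT animals, with 1 female and 1 male of each genotype per the labels. The cells were sorted from spleen, and their polyadenylated RNA was read with paired ends. The age of the animals is not given in the sources used here, nor is the promoter or cell type that drives the deletion. B cells and CD4 T cells of the same study were not analysed here.

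The deposited table gives the mean normalized count of a gene over all 4 libraries, the log2 fold change with its standard error (SE), and p-values. From these values the whole reads of each library could be solved for 17935 of 17954 genes with a mean above 0 and below 10000, among them all 34 fatty acid genes. The solved genes held 13601419 and 9346132 reads in the larger and the smaller cTKO library, and 15131502 and 10210636 reads in the larger and the smaller WT library. Values are given below in that order, and normalized reads are reads divided by the size factor of their library. Hist1h1c had 0 and 0 reads in cTKO and 41 and 56 in WT, Hist1h1e 0 and 0 against 64 and 112, and Hist1h1d 0 and 0 against 5 and 11. The table does not name the numerator of its fold changes, and the negative values of these 3 genes were taken to mean cTKO over WT. They are therefore no separate check of the labels. None of 9 CD8 T cell markers passed the authors' DESeq2 test, with 1 at an unadjusted p under 0.05, and the mean normalized counts of Cd8a and Cd8b1 were 20303 and 31813.

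Fatty acids reach oxidation in steps. Lipases free them from triglyceride or cholesteryl esters, acyl-CoA synthetases activate them, and the carnitine shuttle carries long chains into mitochondria. There, cycles of dehydrogenation, hydration, oxidation and thiolysis shorten the chain, and electrons pass through the electron transfer flavoprotein to the respiratory chain. In T cells the pathway has been studied above all in memory CD8 T cells, for which CPT1A and lysosomal acid lipase have been described as supporting factors, while the need for CPT1A in T cells has also been questioned.

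In cTKO cells Cpt1a rose 2.53-fold, while the synthetase genes Acsl3 and Acsl5 and the lysosomal lipase gene Lipa fell. These were the 4 genes of the group that passed, 1 higher and 3 lower of 32 tested. Over all 12972 genes tested in the authors' deposited table, 9.77% were higher and 3.61% lower, and 13.4% passed in either direction. The 32 genes gave 12.5% in either direction, close to that background, with 3.12% higher and 9.38% lower, shares that rest on 1 and 3 genes. Unadjusted p-values under 0.05 were found for 9 of the 32 (28.1%), beside 26.3% of all genes tested. The remaining 2 genes, Ppara and Acsl6, had means too low for an adjusted p. The median log2 fold change of the 32 genes in the authors' deposited table was -0.20, beside 0.04 over all genes tested. Over the genes with a mean of at least 100, which 25 of the 32 have, the median of all genes was -0.10. Negative fold changes were found for 20 of the 32 genes (62.5%), beside 48.1% of all genes tested and 56.5% of those whose mean was 100 or more. The 32 genes include 7 with a mean under 100, so the last share is of an unlike set. By level, the deposited median was -0.55 for the 11 fatty acid genes with a mean of at least 1000, beside -0.21 over all genes. For the 14 from 100 to 1000 it was -0.12, beside 0.00052, and for the 7 under 100 it was 0.31, beside 0.84. In 13 genes each cTKO library was under each WT library, in 6 it was above, and the genotypes overlapped in 13. Over all tested genes with solved reads these shares were 28.0% below and 31.5% above. Of the tested genes whose mean was 100 or more, 8.09% were higher and 4.46% lower. Of the fatty acid genes, 1 was higher and 2 lower among the 11 with a mean of at least 1000. Among the 14 from 100 to 1000 there were 0 of either, and among the 7 under 100 there was 1 lower. For 9 of the 32 genes the 95% interval of the fold change lay within 2-fold in either direction. For the other genes a 2-fold difference remained within the interval.

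**Figure D1:**
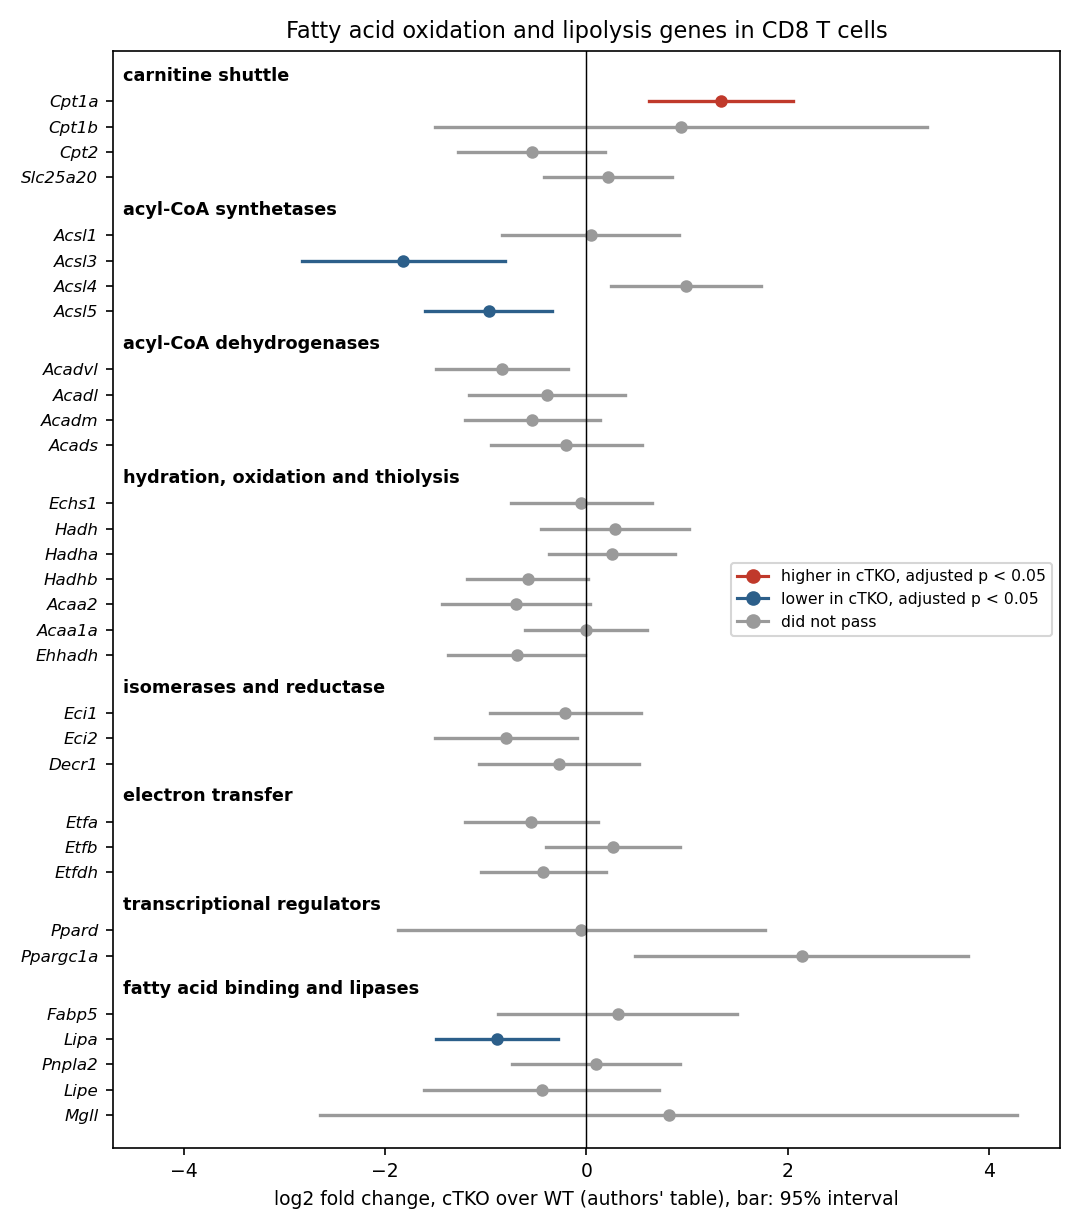
Log2 fold change, cTKO over WT, of the 32 tested fatty acid genes on the horizontal axis, grouped by role, with bars for the 95% interval, from the authors' deposited table. Cpt1a at 1.34 lies to the right of 0 with its whole interval, and Acsl3, Acsl5 and Lipa at -1.82, -0.97 and -0.89 lie to the left with theirs.

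Markers of cell state moved with genotype in the same libraries. Of 21 effector and memory CD8 T cell markers 19 were higher, with summed normalized reads of 73856 and 73777 in cTKO and 20094 and 19108 in WT over the 18 solved genes. Of 12 naive T cell markers 3 were lower. Natural killer cell markers, of which 6 of 12 were higher and 1 lower, summed to 11202 and 9431 normalized reads in cTKO and 2831 and 3003 in WT over 11 solved genes. Eomes, which is also in the effector and memory list, gave 4757 and 4719 of these in cTKO and 902 and 1336 in WT. The lower gene was Fcer1g, with 10 and 9 reads in cTKO and 94 and 41 in WT. Ncr1 did not pass, with 22 and 1 reads in cTKO and 2 and 4 in WT. Macrophage and dendritic cell markers summed to 2836 and 1107 normalized reads in cTKO and 351 and 288 in WT. Most of the sum in cTKO came from Itgax alone, with 2012 and 632 in cTKO and 46.1 and 50.8 in WT. Of 13 tested genes 3 were higher. The 3 were the integrin genes Itgax, with 2429 and 509 reads in cTKO and 56 and 44 in WT, and Itgam, with 434 and 138 in cTKO and 34 and 30 in WT, and the heme oxygenase gene Hmox1, with 99 and 52 in cTKO and 17 and 13 in WT. Among those that did not pass, Cd68 had 209 and 76 reads in cTKO and 76 and 23 in WT, and Csf1r 25 and 6 in cTKO and 2 and 3 in WT. Others lay the other way, such as Apoe with 59 and 25 reads in cTKO and 105 and 52 in WT. Mpeg1 had 2 and 2 reads in cTKO and 5 and 5 in WT, and Lyz2 and Xcr1 overlapped between genotypes. Of the 21 genes listed, 8 were too low to be tested, among them Adgre1 with 4 and 0 reads in cTKO and 2 and 0 in WT, and Fcgr1 with 0 in all libraries. B cell markers summed to 1245 and 431 in cTKO and 2342 and 2226 in WT, with 4 of 9 lower. Of the sum in the larger cTKO library, 748 came from Cd22, which had 47.2 in the smaller cTKO library and 171 and 151 in WT. Neutrophil markers summed to 43.9 and 0 in cTKO and 0 and 0 in WT, all in the larger cTKO library, and neither of the 2 tested genes passed. In the list of adipocyte and stromal cell markers 2 of 10 genes were tested, and 1 was higher and 1 lower. Col1a2 had 163 and 107 reads in cTKO and 0 and 0 in WT, and Pecam1 had 515 and 316 in cTKO and 2481 and 1633 in WT. The adipocyte genes of that list, Adipoq, Plin1, Fabp4 and Lpl, had at most 4 reads in any library. CD4 T cell markers (1 of 5 higher) summed to 361 and 180 normalized reads in cTKO and 249 and 231 in WT, and erythroid and platelet markers (1 of 6 lower) to 152 and 79.5 in cTKO and 195 and 269 in WT. The part of cell composition in the results on fatty acid genes was not tested, and in bulk RNA a change in the number of cells of a type and a change in RNA per cell cannot be told apart.

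The carnitine shuttle held the single gene that rose. Cpt1a (Entrez 12894, chromosome 19, 3322326 to 3385735, GRCm38.p6) codes for the outer membrane carnitine palmitoyltransferase that controls entry of long-chain acyl groups. It had 3194 and 1639 reads in cTKO and 783 and 1045 in WT, or 2645 and 2036 normalized reads in cTKO and 645 and 1207 in WT. Both cTKO libraries were above both WT libraries, and the WT libraries differed from each other more than the cTKO libraries did. The log2 fold change in the authors' deposited table was 1.34 (SE 0.37, adjusted p 0.0038). In limma fits that left out 1 library, Cpt1a passed without the smaller WT library (adjusted p 0.0475) and not without the larger cTKO, the smaller cTKO or the larger WT library (adjusted p 0.40, 0.173 and 0.443). Its log2 fold change in these fits was between 0.94 and 1.85.

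The other genes of the shuttle did not pass. Cpt1b, the muscle isoform, had 16 and 12 reads in cTKO and 12 and 4 in WT, with a log2 fold change of 0.94 by the authors' deposited table (SE 1.25, adjusted p 0.680). These reads are too few to tell whether it changed. Cpt2, the inner membrane enzyme that returns the acyl group to CoA, had 423 and 566 normalized reads in cTKO and 894 and 546 in WT. Slc25a20, the carnitine-acylcarnitine carrier between the membranes' enzymes, had 787 and 1035 in cTKO and 810 and 761 in WT. Both overlapped between genotypes, with log2 fold changes of -0.54 (SE 0.37) and 0.21 (SE 0.32) by the authors' deposited table.

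Long-chain acyl-CoA synthetases activate fatty acids, and 2 of their 4 tested genes were lower. Acsl3 (Entrez 74205, chromosome 1, 78657825 to 78707743) codes for a synthetase of the endoplasmic reticulum and lipid droplets. It had 65 and 27 reads in cTKO and 197 and 128 in WT, which is 53.8 and 33.5 normalized reads in cTKO and 162 and 148 in WT. All cTKO values were under those of WT by a wide margin, and the log2 fold change in the authors' deposited table was -1.82 (SE 0.51, adjusted p 0.00579). It passed in limma with all libraries (adjusted p 0.0235) and did not pass when any single library was left out, with adjusted p 0.232 without the larger cTKO, 0.120 without the smaller cTKO, 0.170 without the larger WT and 0.116 without the smaller WT library.

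Acsl5 (Entrez 433256, chromosome 19, 55251861 to 55296628), a synthetase of mitochondria and endoplasmic reticulum, had 1399 and 1371 reads in cTKO and 3646 and 2251 in WT. After scaling these were 1159 and 1703 normalized reads in cTKO and 3002 and 2599 in WT, without overlap. The log2 fold change in the authors' deposited table was -0.97 (SE 0.32, adjusted p 0.0252). Acsl5 no longer passed with fold changes re-centred on genes with a mean of at least 100 (adjusted p 0.0504) and in limma (adjusted p 0.0681), and in limma without any 1 library, with adjusted p between 0.108 without the smaller cTKO and 0.515 without the larger WT library.

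Acsl4 had a positive fold change that did not pass. The enzyme prefers arachidonate and other polyunsaturated chains, and its gene (Entrez 50790) lies on the X chromosome, 142317993 to 142390802. Normalized reads were 1597 and 806 in cTKO and 543 and 670 in WT, and the larger cTKO library stood well above the other 3. The log2 fold change in the authors' deposited table was 0.99 (SE 0.38, adjusted p 0.0647). Re-centring took it past the threshold (adjusted p 0.0353), while without the larger cTKO library limma gave a log2 fold change of 0.42 (adjusted p 0.439). Acsl1, the synthetase known from liver, heart and fat tissue, had 157 and 132 normalized reads in cTKO and 118 and 163 in WT. Acsl6, known from brain, had 2 and 2 reads in cTKO and 0 and 0 in WT, too few for a comparison.

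**Figure D2:**
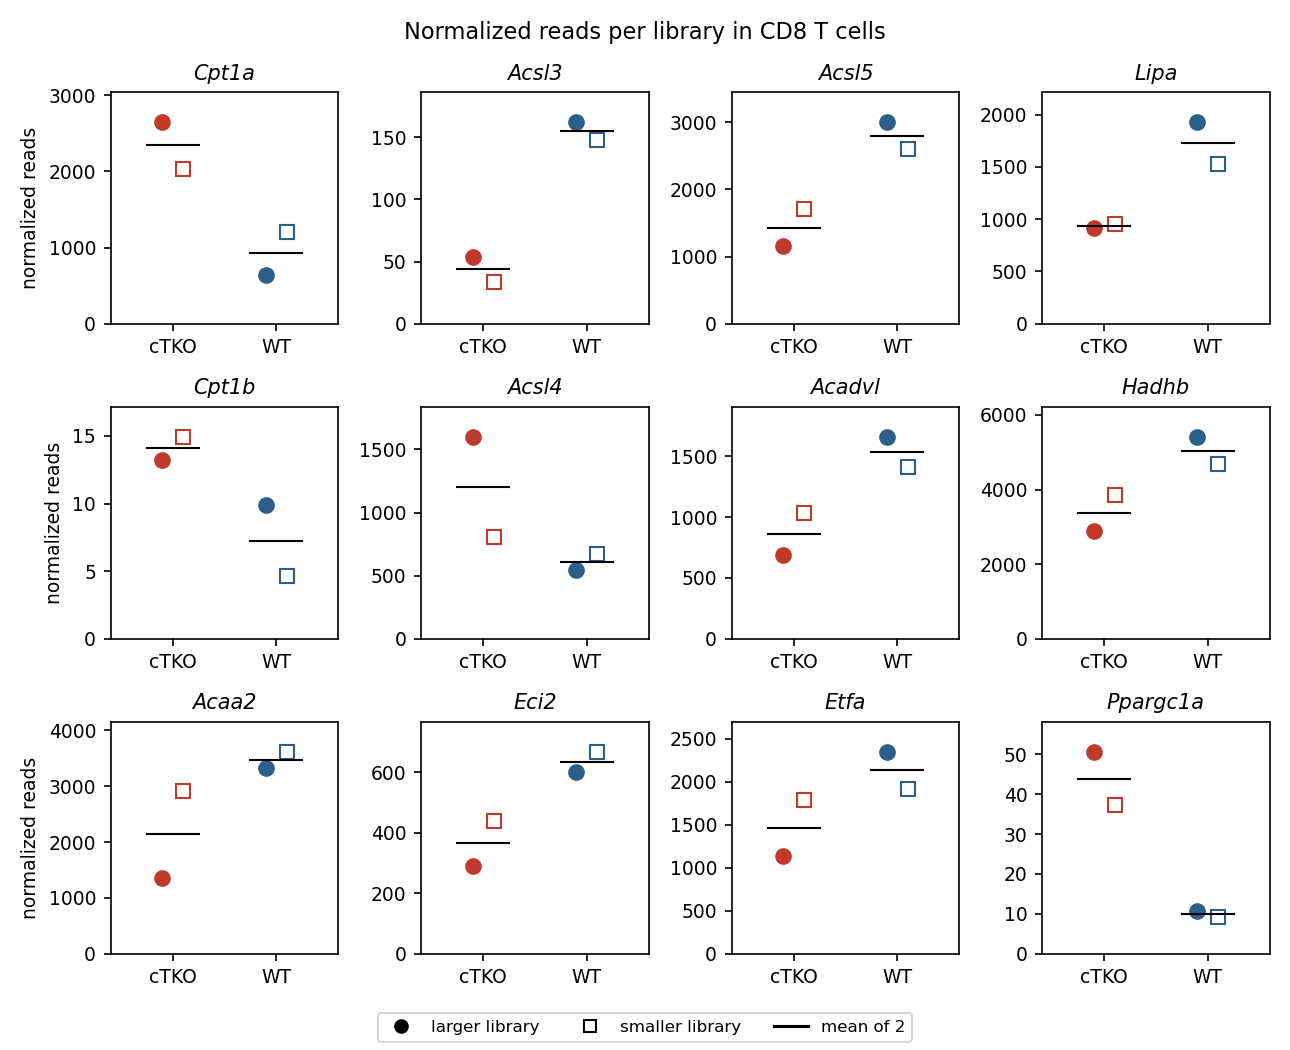
Normalized reads (linear axis from 0) of 12 fatty acid genes in each library, with cTKO left of WT in each panel, filled circles for the larger and open squares for the smaller library, and lines for the mean of 2. Cpt1a lies at 2645 and 2036 in cTKO over 645 and 1207 in WT, and Acsl3 at 53.8 and 33.5 under 162 and 148, while Acaa2 differs more between the cTKO libraries, 1361 and 2919, than between the WT libraries, 3328 and 3611.

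Acyl-CoA dehydrogenases open each round of oxidation, and all 4 of their genes had negative fold changes, of which 0 passed the authors' DESeq2 test and 1 had an unadjusted p under 0.05. Acadvl (Entrez 11370, chromosome 11, 70010183 to 70015428), for very long chains, had 826 and 830 reads in cTKO and 2011 and 1223 in WT. In normalized reads these were 684 and 1031 in cTKO and 1656 and 1412 in WT, again without overlap, with a log2 fold change of -0.84 by the authors' deposited table (SE 0.33, adjusted p 0.0754). Acadm, for medium chains, was also apart between genotypes, with 882 and 1447 normalized reads in cTKO and 1818 and 1557 in WT (log2 fold change -0.54, SE 0.34, adjusted p 0.320 by the authors' deposited table). Acadl, for long chains, had 827 and 443 in cTKO and 656 and 1012 in WT, and Acads, for short chains, 336 and 261 in cTKO and 401 and 284 in WT. Their values overlapped.

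The 7 genes of hydration, oxidation and thiolysis gave no call in the authors' DESeq2 test (1 at an unadjusted p under 0.05), with log2 fold changes between -0.70 and 0.29 by the authors' deposited table. Hadhb and Hadha code for the beta and alpha subunits of the mitochondrial trifunctional protein, which carries out the last 3 steps of a round on long chains. Hadhb (Entrez 231086, chromosome 5, 30155253 to 30184593) had the highest mean normalized count of the 34 genes, 4208, with 2885 and 3859 normalized reads in cTKO and 5403 and 4683 in WT. Its log2 fold change in the authors' deposited table was -0.58 (SE 0.31, adjusted p 0.207). Hadha (Entrez 97212, chromosome 5, 30119423 to 30154980) lay on the other side, with 960 and 801 normalized reads in cTKO and 772 and 700 in WT, a log2 fold change of 0.26 by the authors' deposited table (SE 0.32, adjusted p 0.653). The genotypes did not overlap in either gene.

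Read ratios of partner genes do not depend on the size factors. Among 7 such ratios, chosen after the fold changes were seen and given with no test, that of Hadhb to Hadha was 3.01 and 4.82 in cTKO and 7.0 and 6.69 in WT. The ratio of Etfa to Etfb, which code for the subunits of the electron transfer flavoprotein, was 1.09 and 1.09 in cTKO and 2.06 and 1.75 in WT. Both ratios were lower in each cTKO library than in each WT library, as were those of Eci2 to Eci1 (0.504 and 0.383 in cTKO, 0.540 and 0.758 in WT) and of Acsl3 to Acsl4 (0.0337 and 0.0416 in cTKO, 0.299 and 0.221 in WT). The ratio of Cpt1a to Cpt2 was higher, at 6.25 and 3.59 in cTKO and 0.721 and 2.21 in WT, and so was that of Acsl4 to Acsl5, at 1.38 and 0.473 in cTKO and 0.181 and 0.258 in WT. The ratio of Cpt1a to Cpt1b, 199.6 and 137 in cTKO and 65.3 and 261 in WT, overlapped between genotypes. A ratio shows that the partners differ unequally, not which of them changed.

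**Figure D3:**
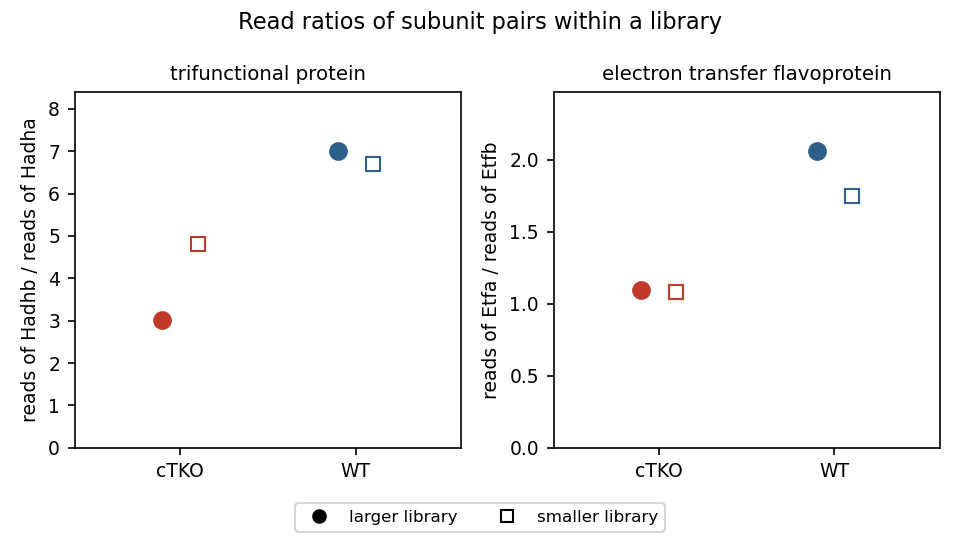
Read ratio (linear axis from 0) of Hadhb to Hadha on the left and of Etfa to Etfb on the right within each library, cTKO left of WT, filled circles for the larger and open squares for the smaller library. The Hadhb to Hadha ratio is 3.01 and 4.82 in cTKO under 7.0 and 6.69 in WT, and the Etfa to Etfb ratio 1.09 and 1.09 under 2.06 and 1.75.

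The other enzymes of these steps did not pass either. Acaa2 (Entrez 52538, chromosome 18, 74779212 to 74806207), a mitochondrial thiolase, had 1361 and 2919 normalized reads in cTKO and 3328 and 3611 in WT. The larger cTKO library alone was far below the rest, and the log2 fold change in the authors' deposited table was -0.70 (SE 0.37, adjusted p 0.219). Ehhadh, the peroxisomal bifunctional enzyme, had 273 and 288 normalized reads in cTKO and 441 and 466 in WT, a close agreement within each genotype (log2 fold change -0.69, SE 0.35, adjusted p 0.182 by the authors' deposited table). Acaa1a, the peroxisomal thiolase, had 1422 and 1728 normalized reads in cTKO and 1436 and 1716 in WT. Its 95% interval in the authors' deposited table was -0.61 to 0.61 on the log2 scale, and its reads are uncertain where they are shared with the near-identical copy Acaa1b. The short-chain enzymes Echs1 and Hadh overlapped between genotypes, with log2 fold changes of -0.05 and 0.29 by the authors' deposited table.

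Enoyl-CoA isomerases and 2,4-dienoyl-CoA reductase prepare unsaturated chains, and of their 3 genes 0 passed the authors' DESeq2 test, with 1 at an unadjusted p under 0.05. Eci2 (Entrez 23986, chromosome 13, 34977748 to 35027115), an isomerase, had 350 and 354 reads in cTKO and 728 and 577 in WT. Its normalized reads were 290 and 440 in cTKO and 599 and 666 in WT, without overlap, and the log2 fold change in the authors' deposited table was -0.80 (SE 0.36, adjusted p 0.127). Eci1, the other isomerase, had 575 and 1148 in cTKO and 1109 and 879 in WT, so the cTKO libraries spanned the WT values. Decr1, the reductase, had 156 and 189 in cTKO and 217 and 197 in WT (log2 fold change -0.27, SE 0.41 by the authors' deposited table).

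The 3 electron transfer genes gave no call, with 0 at an unadjusted p under 0.05 in the authors' DESeq2 test. Etfa (Entrez 110842, chromosome 9, 55454436 to 55512243) had 1367 and 1441 reads in cTKO and 2848 and 1663 in WT, which is 1132 and 1790 normalized reads in cTKO and 2345 and 1920 in WT. The genotypes did not overlap, and the log2 fold change in the authors' deposited table was -0.55 (SE 0.34, adjusted p 0.298). Etfb had 1035 and 1650 normalized reads in cTKO and 1139 and 1096 in WT, so the cTKO libraries lay on both sides of WT. Etfdh, which passes the electrons on to ubiquinone, had 1171 and 1466 in cTKO and 2000 and 1543 in WT, with a log2 fold change of -0.43 by the authors' deposited table (SE 0.32, adjusted p 0.409).

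The 3 transcriptional regulators in this group of genes had few reads. Ppargc1a (Entrez 19017, chromosome 5, 51454249 to 52115853), which codes for the coactivator PGC-1alpha of mitochondrial genes, had 61 and 30 reads in cTKO and 13 and 8 in WT, or 50.5 and 37.3 normalized reads in cTKO and 10.7 and 9.24 in WT. Both cTKO libraries were well above both WT libraries. The log2 fold change in the authors' deposited table was 2.14 (SE 0.84, adjusted p 0.0726). It did not pass there, and it passed in limma with all libraries (adjusted p 0.0432) but not when any 1 library was left out (adjusted p 0.107 to 0.263). The nuclear receptor gene Ppard had 30 and 12 reads in cTKO and 21 and 21 in WT. Ppara, its relative that governs oxidation genes in liver, had 10 and 1 reads in cTKO and 2 and 0 in WT, nearly all in 1 library.

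Of the genes for fatty acid binding and lipases, Lipa fell and the other 4 did not pass. Lipa (Entrez 16889, chromosome 19, 34492316 to 34527474) codes for lysosomal acid lipase, which frees fatty acids from cholesteryl esters and triglycerides. It had 1103 and 768 reads in cTKO and 2341 and 1323 in WT, or 914 and 954 normalized reads in cTKO and 1928 and 1528 in WT. The cTKO libraries were close to each other and under both WT libraries, with a log2 fold change of -0.89 by the authors' deposited table (SE 0.31, adjusted p 0.0352). The call was lost with re-centring (adjusted p 0.0704) and in limma (adjusted p 0.0824). With 1 library left out, limma gave adjusted p between 0.135 without the smaller cTKO and 0.656 without the larger WT library.

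The cytosolic lipases of triglyceride breakdown act in sequence. Pnpla2, the adipose triglyceride lipase, had 946 and 1102 normalized reads in cTKO and 522 and 1394 in WT, and the WT libraries spanned both cTKO values. Lipe, the hormone-sensitive lipase, had 59.6 and 41.0 normalized reads in cTKO and 74.9 and 62.4 in WT. Mgll, the monoacylglycerol lipase, had 8 and 5 reads in cTKO and 2 and 5 in WT. Fabp5, a fatty acid binding protein gene, had 67.1 and 91.9 normalized reads in cTKO and 38.7 and 90.1 in WT. None of these 4 genes passed the authors' DESeq2 test. In normalized reads both cTKO libraries were under both WT libraries for Lipe and above them for Mgll, at 6.63 and 6.21 in cTKO and 1.65 and 5.77 in WT.

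Set per kilobase of the longest coding transcript, Hadhb was the highest of the 34 genes in both genotypes, at 1646 normalized reads per kilobase in cTKO and 2463 in WT. Etfb, Acaa2, Etfa and Acaa1a followed in cTKO at 1503, 1412, 1050 and 894 per kilobase, and the same 4 genes stood at 1251, 2288, 1532 and 894 in WT. On this scale Cpt1a ranked 9 in cTKO, at 542 per kilobase, and 19 in WT, at 214. The spread between the libraries of a genotype, given above, is as wide as several of the gaps between neighbours in this order.

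Summed over the 34 genes, normalized reads were 24179 and 30019 in cTKO and 33332 and 32710 in WT. The larger cTKO library, which also held the neutrophil and most of the Cd22 reads, had the lowest sum of the 4. It held the only read of 1165 genes. This number was 156 for the smaller cTKO, 102 for the larger WT and 97 for the smaller WT library. The larger WT library had more reads in solved genes, 15131502 against 13601419 in the larger cTKO library. Whether this bears on low counts in the larger cTKO library was not tested. Its values were below those of the smaller cTKO library in 19 of 25 fatty acid genes with a mean of at least 100, with a median ratio of 0.76, while over all tested genes of that level this ratio was 0.936. The same median ratio in WT was 1.06 for fatty acid genes and 1.03 for all genes. The cTKO libraries differed by more than 1.5-fold in 12 genes with a mean of at least 10 and the WT libraries in 7. These sums were formed after values were seen and have no test. The larger library of each genotype was the one with most Xist reads, 4871 against 28 in cTKO and 479 against 2 in WT, so its size and the sex of its animal cannot be told apart.

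**Figure D4:**
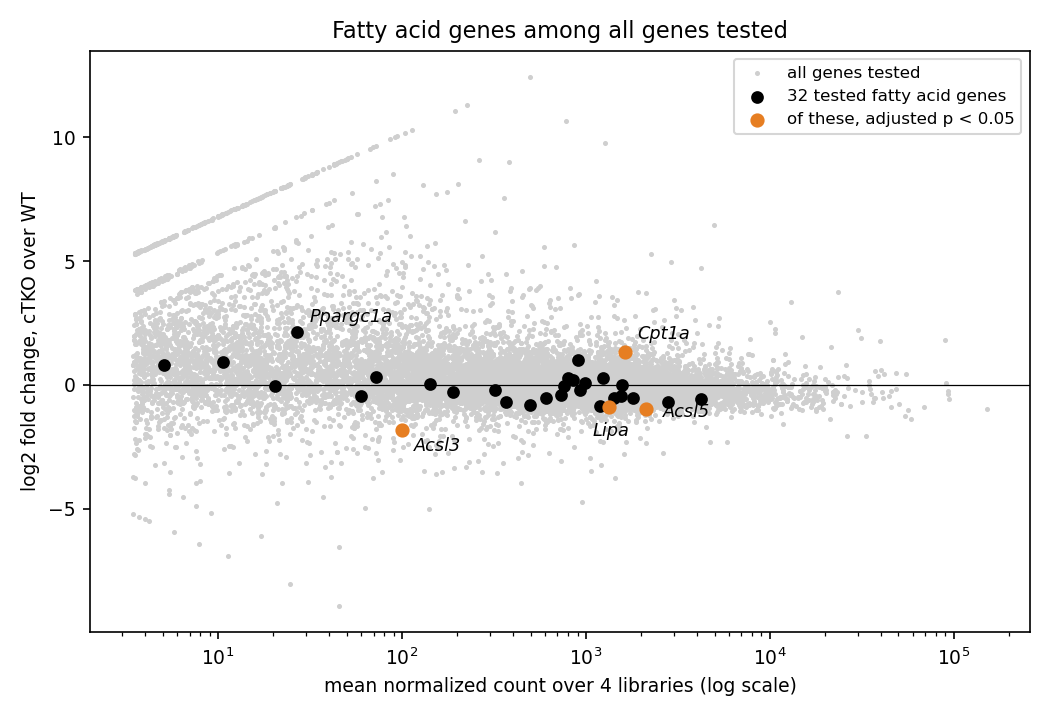
Log2 fold change, cTKO over WT, against the mean normalized count over 4 libraries (log axis) for all 12972 genes tested in grey, the 32 tested fatty acid genes in black and the 4 that passed in orange, from the authors' deposited table. The fatty acid genes lie among the points of all genes, and of the 4 that passed Cpt1a is the uppermost, at 1.34, and Acsl3 the lowermost, at -1.82, while Ppargc1a, which did not pass, lies at 2.14.

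The promoters of the 4 genes that passed, and of Hadhb as the most abundant gene, are shown because these genes carry the comparison. Sequences are from RefSeq on GRCm38.p6, from 250 bases before to 50 after the start, written in the direction of transcription, with capitals for the GC box (GGGCGG, or CCGCCC on the other strand) and for the nuclear receptor half-site (AGGTCA, or TGACCT on the other strand). For Cpt1a and Acsl5 the whole window lies inside the gene coordinates given above, so the start used is not the outermost start of the gene.
Cpt1a (chr19:3323051-3323350, plus strand): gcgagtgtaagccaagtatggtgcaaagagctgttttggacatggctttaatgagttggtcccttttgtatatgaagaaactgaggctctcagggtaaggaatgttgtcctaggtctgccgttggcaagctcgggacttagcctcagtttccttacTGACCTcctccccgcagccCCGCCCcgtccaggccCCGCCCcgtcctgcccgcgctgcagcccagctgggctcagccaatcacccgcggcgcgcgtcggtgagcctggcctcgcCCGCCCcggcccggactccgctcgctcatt
Acsl3 (chr1:78657575-78657874, plus strand): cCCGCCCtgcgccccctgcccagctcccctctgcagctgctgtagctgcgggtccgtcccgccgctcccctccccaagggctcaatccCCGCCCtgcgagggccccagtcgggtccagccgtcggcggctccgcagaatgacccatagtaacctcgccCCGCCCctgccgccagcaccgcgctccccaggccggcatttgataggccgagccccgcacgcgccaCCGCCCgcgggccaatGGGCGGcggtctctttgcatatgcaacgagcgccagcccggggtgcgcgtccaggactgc
Acsl5 (chr19:55253119-55253418, plus strand): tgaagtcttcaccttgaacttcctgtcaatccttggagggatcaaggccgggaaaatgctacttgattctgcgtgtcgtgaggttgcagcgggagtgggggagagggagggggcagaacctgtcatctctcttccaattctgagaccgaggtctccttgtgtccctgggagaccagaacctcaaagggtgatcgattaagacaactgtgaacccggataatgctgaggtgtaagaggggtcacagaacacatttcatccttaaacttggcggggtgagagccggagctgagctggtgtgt
Lipa (chr19:34527425-34527724, minus strand): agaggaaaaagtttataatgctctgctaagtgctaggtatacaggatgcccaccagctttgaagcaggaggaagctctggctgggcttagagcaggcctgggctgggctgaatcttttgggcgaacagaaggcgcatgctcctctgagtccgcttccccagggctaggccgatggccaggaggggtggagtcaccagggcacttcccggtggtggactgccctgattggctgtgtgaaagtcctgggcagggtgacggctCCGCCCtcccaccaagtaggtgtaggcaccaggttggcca
Hadhb (chr5:30155003-30155302, plus strand): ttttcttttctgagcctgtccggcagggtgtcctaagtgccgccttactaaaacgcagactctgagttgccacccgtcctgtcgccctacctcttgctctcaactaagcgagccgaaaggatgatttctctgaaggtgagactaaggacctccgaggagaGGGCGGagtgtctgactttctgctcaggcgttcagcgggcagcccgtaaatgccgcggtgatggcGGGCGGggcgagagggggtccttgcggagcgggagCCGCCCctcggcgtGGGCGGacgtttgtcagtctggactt

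In the windows shown, Cpt1a held 1 half-site and several GC boxes, and Acsl3 and Hadhb held several GC boxes. There, Lipa held 1 GC box, and Acsl5 held none of either motif. A promoter was found for 30 of the 34 genes, and none was used for Acaa2, Cpt1b, Decr1 and Fabp5. These 30 genes have 35 promoter windows, since some have more than 1. Searched on both strands, the GC box stood in 28 of the 35 windows, against 35.9% of 32544 promoters. The GC content of the windows was not set against that of all promoters. The half-site stood in 5 of the 35 windows (of Acadm, Echs1, Acsl6, Acadvl and Cpt1a), against 16.2% of promoters. A pair of half-sites in direct repeat with 1 base between them, which contains the half-site, stood in 0 windows, against 0.0399%. Among other motifs, CCAAT stood in 15 of the 35 windows (37.4% of promoters) and CACGTG in 2 (7.17%). The palindrome known as the NRF1 site stood in 2 windows (0.974%) and TATAAA in 1 (13.6%). Hadhb and Hadha are read in opposite directions from starts 273 bases apart, and their promoter windows share 228 bases. Cpt1a, Lipa and Acsl5 are the 3 fatty acid genes on chromosome 19 and all passed, in both directions, while 10.9% of 458 tested genes of that chromosome passed. Their shared chromosome was noticed after the calls were known and has no test.

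Other genes of fatty acid oxidation were examined as a list of 59, of which 52 were tested, 3 higher and 2 lower, with a median log2 fold change of -0.17 by the authors' deposited table. Over all genes tested 9.77% were higher and 3.61% lower, with a median of 0.04, and the list counts rest on few genes. Echdc2, an enoyl-CoA hydratase domain gene, had 134 and 106 reads in cTKO and 11 and 7 in WT, a clear separation (log2 fold change 3.82, SE 0.65, adjusted p 2.58e-07 by the authors' deposited table). Acot7, an acyl-CoA thioesterase that splits the CoA ester, had 2377 and 1904 reads in cTKO and 1013 and 652 in WT, a log2 fold change of 1.45 by the authors' deposited table. Acsf3, a mitochondrial malonyl-CoA synthetase, had 136 and 81 reads in cTKO and 28 and 27 in WT. Pccb, a propionyl-CoA carboxylase subunit, fell, with 96 and 140 reads in cTKO and 379 and 277 in WT.

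In the list of 44 lipolysis, lipid droplet and lysosomal lipid genes, 27 were tested, 5 were higher and 2 lower, with a median log2 fold change of 0.24 by the authors' deposited table. These few genes stand beside 9.77% higher, 3.61% lower and a median of 0.04 over all genes tested. Lpin1, a phosphatidate phosphatase that is also a transcriptional coactivator, had 10462 and 5720 reads in cTKO and 1699 and 1310 in WT (log2 fold change 2.44, SE 0.29, adjusted p 2.4e-14 by the authors' deposited table). Aqp9, a channel for water and glycerol, had 4167 and 3571 reads in cTKO and 370 and 256 in WT, and Aqp3, another such channel, fell, with 485 and 265 in cTKO and 849 and 686 in WT. G0s2, an inhibitor of the lipase encoded by Pnpla2, rose, with 999 and 1173 reads in cTKO and 487 and 283 in WT. Pnpla3, a lipid droplet protein gene related to Pnpla2, had 39 and 23 reads in cTKO and 3 and 0 in WT. Npc1, which exports cholesterol from lysosomes, rose with a log2 fold change of 1.02 by the authors' deposited table. Faah, a hydrolase of fatty acid amides, fell, with a log2 fold change of -0.81 by the authors' deposited table.

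Among 39 regulators of fatty acid oxidation 33 were tested, 1 was higher and 2 were lower, with a median log2 fold change of -0.05 by the authors' deposited table. The shares over all genes tested were 9.77% higher and 3.61% lower, with a median of 0.04. Il15ra, the interleukin 15 receptor alpha chain, had 810 and 547 reads in cTKO and 375 and 289 in WT (log2 fold change 1.07, SE 0.33, adjusted p 0.014 by the authors' deposited table). Pdk1 and Pdk2 code for kinases that inhibit pyruvate dehydrogenase, and both fell. Pdk1 had 2314 and 1738 reads in cTKO and 6188 and 5456 in WT (log2 fold change -1.48, SE 0.30, adjusted p 2.19e-05 by the authors' deposited table), and Pdk2 272 and 226 in cTKO against 654 and 442 in WT. Over these 3 lists and with all 4 libraries limma called 7 of 111 list genes higher and 2 lower, against 993 and 250 of all 12754 genes. How the calls fared with 1 library left out is given below.

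**Figure D5:**
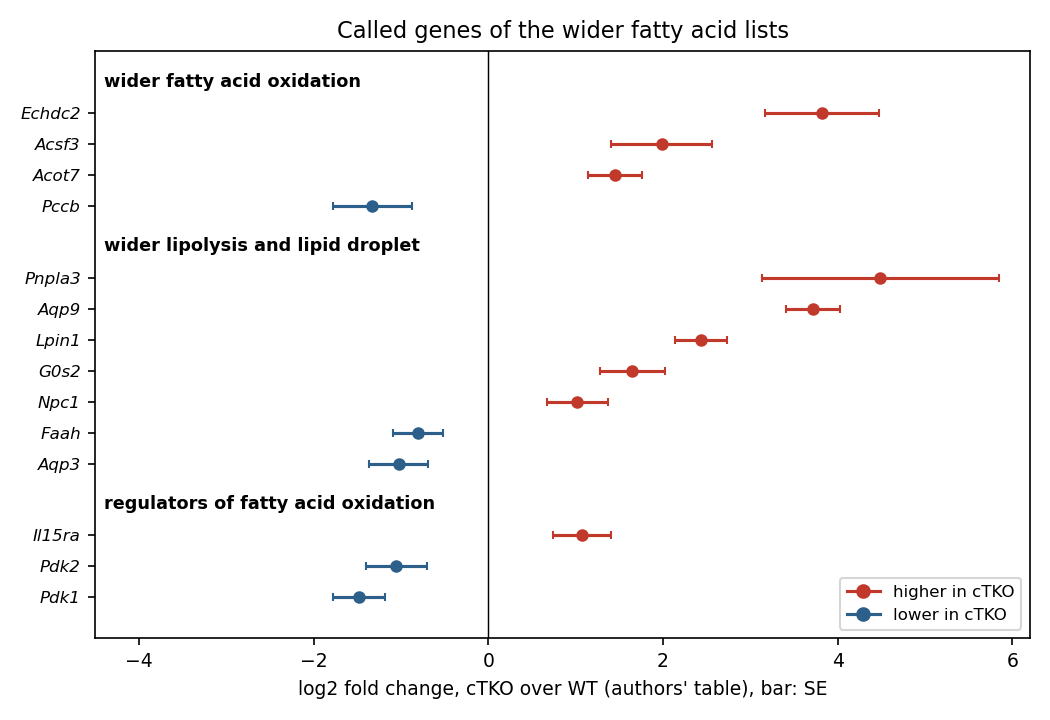
Log2 fold change, cTKO over WT, with bars for the SE, of 14 of the 15 genes that passed in the wider lists of oxidation, lipolysis and regulation, from the authors' deposited table. The 9 higher genes lie between 1.02 (Npc1) and 4.49 (Pnpla3), and the 5 lower genes drawn between -1.48 (Pdk1) and -0.81 (Faah).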

How the data were processed

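Polyadenylated RNA of sorted splenic CD8 T cells was sequenced for 2 cTKO and 2 WT animals. STAR and DESeq2 were used on mm10 and GRCm38.p6, per the submitters' processing notes. The annotation used is not given in the sources used here, nor are the counting tool, strand handling and versions. The authors deposited a mean normalized count per gene, a signal computed from counts over size factors. They also deposited a log2 fold change with its SE, a test score (fold change over SE), a p-value and an adjusted p-value, per the file headers. A gene passed, as higher or lower, at a deposited adjusted p under 0.05. Adjusted p was absent for genes with a mean of 3.43 or less. Where nothing else is said, p-values set a difference against a spread between these 4 animals that need not come from a gene's own reads alone. For the deposited p-values, how far this spread was drawn from other genes is not given in the sources used here. In limma the spread is drawn partly from the mean-variance trend over all genes.

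Whole reads per library were worked back, since a mean is a sum of 4 whole numbers over size factors. For each set of reads that gives the mean, the negative binomial fit was repeated at the dispersion that gives the deposited SE, and sets within 3e-09 of the deposited log2 fold change were kept. This gave 1 solution for 99.9% of genes with a mean below 10000, of which 5 had none and 14 had 2, and 199 genes with higher means were not tried. Size factors were 1.207396 and 0.804969 for cTKO and 1.214423 and 0.866028 for WT. In reads simulated for cTKO against WT, 700 of 700 genes with a mean under 20, 747 of 747 from 20 to 1000 and 418 of 419 above had 1 solution, each of them right. Recovered libraries have a genotype, through the direction of the fold change, and no named animal. The limma fits (limma 3.58.1, R 4.3.3) used log2 of normalized reads plus 0.5 with a mean-variance trend and Benjamini-Hochberg adjustment over 12754 genes. On simulated reads of cTKO against WT they called 50 of 50 genes changed by 2 on the log2 scale upwards and 28 of 50 changed by 1. False calls numbered 8 among 12754 genes run. The simulated spread was set in advance, below what the deposited SEs of abundant genes such as Hadhb and Cpt1a imply. The shares called are therefore no estimate of power in these data.

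Fatty acid genes and lists were chosen with earlier results of these data known. Values are given in full for genes that passed, for the 5 largest changes among those with a mean of at least 10 that did not, and for the 5 highest means. Other genes are given more briefly. A gene of the wider lists is not reported here. Alternatives were another adjustment, thresholds of 0.01 and 0.1, re-centring, a minimum mean of 10, limma, TMM scaling, sex as a block, and leaving out each library.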

Additional observations from a re-analysis of the deposited data

How the results depend on the processing

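The 12 alternatives were applied to the counts of genes that passed and to 50 single genes (the 32 tested fatty acid genes, the 15 that passed in the wider lists and the deleted H1 genes). None of the 21 that passed changed sign under these alternatives, but many calls depended on them. Of the fatty acid genes 1 was higher and 3 lower as deposited. Lower genes came to 1 at an adjusted p under 0.01, and higher genes to 3 at one under 0.1. Re-centring, limma and TMM scaling each gave 2 higher and 1 lower. With 1 library left out in limma, the log2 fold change was 0.94 to 1.85 for Cpt1a and -2.19 to -1.52 for Acsl3. It was -1.27 to -0.71 for Acsl5 and -1.05 to -0.71 for Lipa. Whether these genes passed in such fits is given with each gene above. In the wider lists, 9 higher and 6 lower as deposited, lower genes came to 2 at an adjusted p under 0.01, 10 under 0.1, and 2 in limma and with TMM scaling, and leaving out 1 library gave 1 to 4 higher and 0 lower. Over all 12754 genes limma called 993 higher and 250 lower, and 225 and 4 without the larger cTKO, 254 and 6 without the smaller cTKO, 614 and 65 without the larger WT and 684 and 84 without the smaller WT library. These fits hold a single library of a genotype, which is assumed to vary like the other genotype. The median log2 fold change of the fatty acid genes stayed between -0.23 and -0.10. The cause of these changes was not tested, beyond the smaller number of samples.

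Sex was used as a replicate block after the libraries were matched to the sexes by Xist. The deviations of same-sex libraries from their genotype means had a correlation of -0.01 across 9051 genes, which are not independent replicates, so the block pairs the libraries by label alone. With it, 2 fatty acid genes were higher and 2 lower, and 1679 of all genes were higher and 513 lower. Little spread of a gene's own libraries is left in this fit, so its p-values rest mainly on the trend over all genes.

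Fold changes close to 0 changed sign in 11 genes that did not pass. With re-centring Echs1 was at 0.0526, Acaa1a at 0.10 and Ppard at 0.0514 on the log2 scale, and with TMM scaling Acaa1a was at 0.00763. In limma without 1 library the log2 fold change ranged from -0.18 to 0.28 for Acsl1, -0.88 to 0.0222 for Acadl, -0.44 to 0.0602 for Acads, -0.45 to 0.28 for Echs1, -0.0691 to 0.69 for Hadh, -0.14 to 0.14 for Acaa1a, -0.78 to 0.22 for Eci1, -0.11 to 0.56 for Etfb, -0.45 to 0.27 for Ppard, -0.20 to 1.01 for Fabp5 and -0.45 to 0.97 for Pnpla2.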
